A study of Mus musculus with 8 samples.

Results

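The genes described here begin with the 3 enzymes that take a stored triglyceride apart in the fat cell. Beside them are the activator and the inhibitor of the first enzyme, and the receptors and the phosphodiesterase that set the signal above them. The 9 genes are Pnpla2, Lipe, Mgll, Abhd5, G0s2, Adrb1, Adrb3, Adra2a and Pde3b. Each was found by an exact match of its symbol in the deposited counts, where all 9 had a single row among 31854 rows. RNA came from epididymal white adipose tissue, a visceral fat depot of male mice, and all the mice had been fed a high-fat diet. They were S273A, with a knock-in allele that puts alanine at serine 273 of PPAR-gamma, or wild type (WT), and there were 4 libraries of each genotype. S273A libraries are numbered 2, 3, 4 and 6, and WT libraries 1, 2, 3 and 5. The sources used here give neither age nor strain, and do not say whether each library was 1 animal; the p-values therefore rest on the spread between libraries, which may be technical.

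Lipolysis proceeds in steps. Pnpla2 encodes adipose triglyceride lipase (ATGL), which removes the first fatty acid; Lipe encodes hormone-sensitive lipase (HSL), which acts mainly on diglycerides; and Mgll encodes monoglyceride lipase, which releases glycerol. Abhd5 (CGI-58) activates ATGL, and G0s2 binds and inhibits it. Noradrenaline acting on the beta-adrenergic receptors Adrb1 and Adrb3 raises cAMP, and protein kinase A then phosphorylates HSL and the droplet coat protein perilipin 1. The alpha-2A receptor Adra2a opposes the rise of cAMP, and Pde3b, the phosphodiesterase that insulin activates, breaks cAMP down. PPAR-gamma is the nuclear receptor of fat cell formation, and several genes of lipolysis, Pnpla2 and G0s2 among them, are known targets of it in mouse fat cells.

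Total counts ran from 16161127 to 18194889 in S273A and from 14880239 to 17266209 in WT. All 12 adipocyte markers examined were tested, and their summed level ran from 11502 to 14788 CPM, normalised read counts scaled to a common library size, in S273A and from 9978 to 14969.5 CPM in WT. The brown fat marker Ucp1 was near 0, at 0.33 ± 0.24 CPM in S273A and 0.60 ± 0.44 CPM in WT (SD, n = 4 each). None of the 8 epididymis and testis markers was tested. Of the 6 with a row, Adam7 had 20 counts, all in a single S273A library. Rnase10 had 1 to 8 counts in S273A libraries and 1 to 5 in WT libraries. Adipoq, the adiponectin gene of fat cells, was at 704 ± 105 CPM in S273A and 683 ± 110 CPM in WT. The allele changes 1 codon, so the level of Pparg, 139.7 ± 18.1 CPM in S273A and 129 ± 15.0 CPM in WT, does not check the genotype labels.

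The comparison of S273A with WT asks whether blocking phosphorylation at this serine moves the transcripts of lipolysis in the epididymal depot under high-fat feeding. None of the 9 genes passed an adjusted p under 0.05 in edgeR's quasi-likelihood test (smallest adjusted p 0.9999), where 0% of the 15667 rows tested were called. At an unadjusted p under 0.05 the count was 0 of 9, against 1.46% of all rows, and in 0 of 9 did the genotypes fail to overlap, against 1.19% of all rows (0.657% higher and 0.53% lower in S273A). Estimates were above 0 in 8 of 9 genes, against 50.7% of all rows, and their median was 0.08 on the log2 scale, against 0.001 over all rows. That count depended on single libraries: without WT replicate 2 it was 4 of 9, without S273A replicate 2 it was 5 of 9, and without S273A replicate 4 it was 7 of 9, while any other single library left out gave 8 of 9. The 12 adipocyte markers, none of them among the 9 genes, had 9 estimates above 0 over all 8 libraries, with a median of 0.06.

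**Figure D1:**
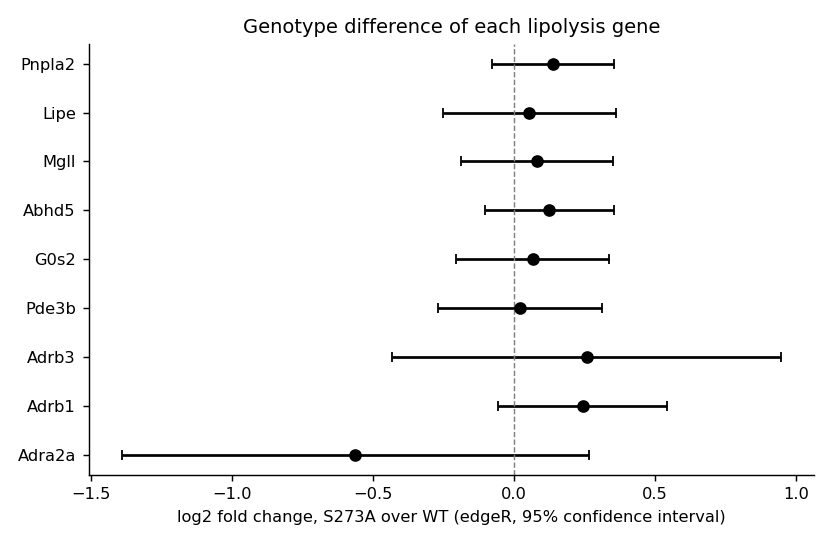
Log2 fold change of each gene, S273A over WT, from edgeR (points) with its 95% confidence interval (bars); the dashed line marks no difference. Every interval crosses 0; those of Adrb3 and Adra2a are the widest, from -0.43 to 0.95 and from -1.39 to 0.27.

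Pnpla2, the lipase that opens the pathway, had 966, 785, 945 and 858 CPM in S273A replicates 2, 3, 4 and 6, against 881, 688, 818 and 841 CPM in WT replicates 1, 2, 3 and 5. The ranges overlapped, with WT replicate 2 the lowest of the 8 and S273A replicates 2 and 4 the highest. Its means were 889 ± 83.4 CPM in S273A and 807 ± 83.5 CPM in WT (SD, n = 4 each). The log2 fold change was 0.14 (SE 0.10), with a 95% confidence interval of 0.948-fold to 1.28-fold. The gene lies on the plus strand of chromosome 7 at 141455198 to 141460743 (GRCm38), and no annotated gene shares its exons.

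Lipe, the hormone-sensitive lipase gene, had 869, 671, 864 and 691 CPM in the S273A libraries and 745, 576, 871 and 788 CPM in the WT libraries, in the same order of replicates. The S273A libraries fell into a high pair, replicates 2 and 4, and a low pair, replicates 3 and 6, and WT spanned the same range and more. The log2 fold change was 0.06 (SE 0.14; interval 0.84-fold to 1.28-fold). Mgll, the last enzyme of the chain, had 1676, 1282, 1406 and 1416 CPM in S273A and 1461, 1088, 1543 and 1375 CPM in WT. S273A replicate 2 was the highest and WT replicate 2 the lowest, with the other libraries mixed (log2 fold change 0.08, SE 0.12). Lipe lies on the minus strand of chromosome 7 at 25379527 to 25398710 and shares 918 exon bases with 4732471J01Rik on the other strand. Mgll lies on the plus strand of chromosome 6 at 88724412 to 88828360 and shares 167 exon bases with Gm26588 on the other strand. The libraries carry no strand information, so reads from those stretches cannot be assigned to one gene.

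**Figure D2:**
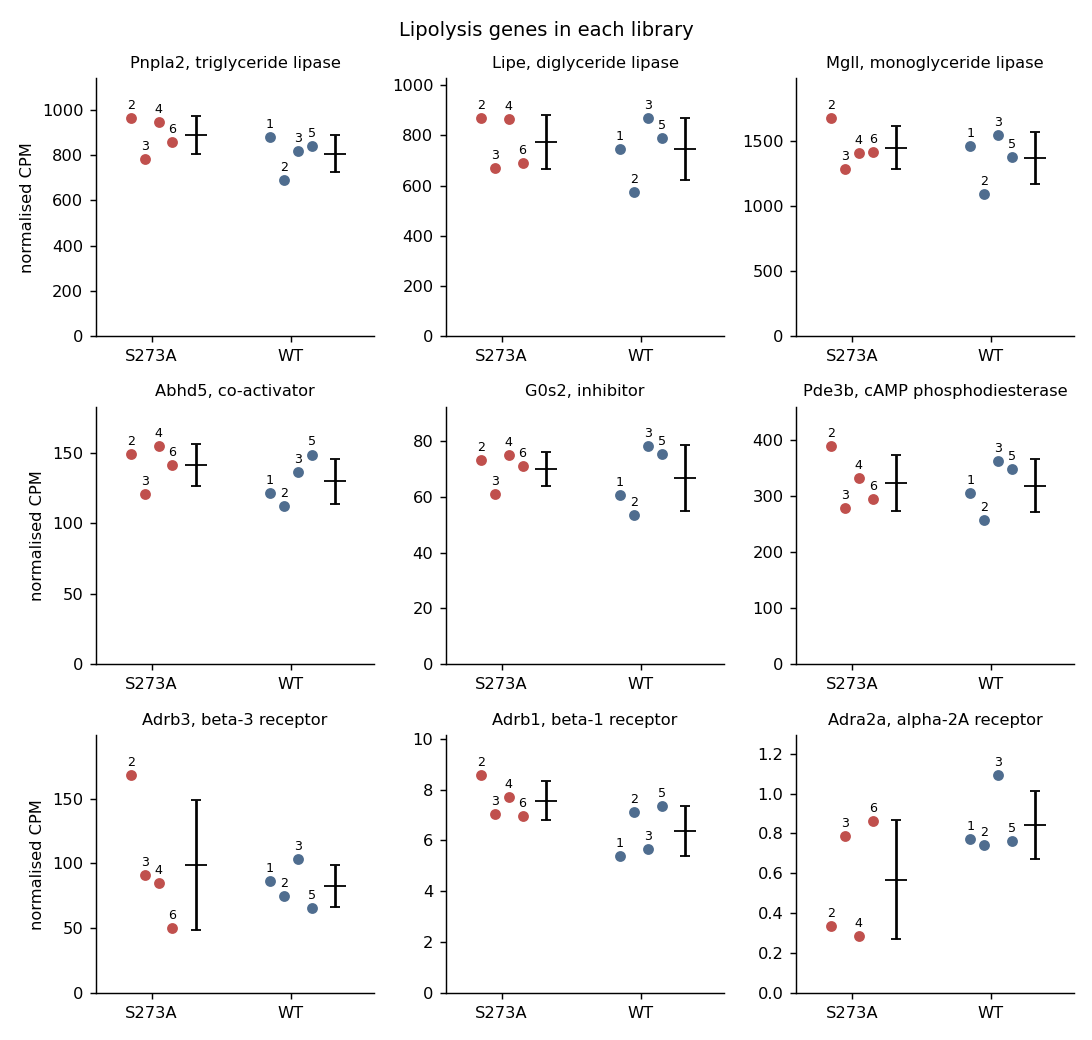
Normalised CPM of each gene in every library, each point labelled with its replicate number, S273A left and WT right; the black bar is the mean and the whisker 1 SD (n = 4), and each panel has its own scale from 0. S273A and WT overlap in every panel, and Adrb3 in S273A spreads from 50.02 to 169 CPM.

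Abhd5, the co-activator of ATGL, had 149, 121, 155 and 142 CPM in S273A and 122, 112, 136 and 149 CPM in WT, a log2 fold change of 0.13 (SE 0.10; interval 0.931-fold to 1.28-fold). WT replicate 2 was again the lowest, and WT replicate 5 lay among the highest S273A libraries. G0s2, the inhibitor of ATGL, had 73.0, 60.8, 74.7 and 70.8 CPM in S273A and 60.5, 53.3, 78.0 and 75.1 CPM in WT. WT held both the 2 highest and the 2 lowest libraries, with S273A between them, and the log2 fold change was 0.07 (SE 0.12). Its spread was 6.20 CPM (SD) in S273A and 11.8 CPM in WT. G0s2 lies on the minus strand of chromosome 1 at 193272161 to 193273217. Abhd5 lies on the plus strand of chromosome 9 at 122351608 to 122381524 and shares 950 exon bases with A730085K08Rik on the minus strand, whose own row averaged 1.22 CPM in S273A and 1.15 CPM in WT.

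The lipase, its activator and its inhibitor are the genes at the step that commits the droplet to breakdown, and each has 1 listed start site, so the 250 bases before that start are shown for these 3 genes. Sequences are from RefSeq on GRCm38.p6, 5′ to 3′ on the strand of the gene. Capitals mark a GC box (GGGCGG), the cAMP response element core TGACG and the hexamer AGGTCA that PPAR-gamma and its partner bind, searched on both strands; none of the marked matches overlap.
Pnpla2, chr7:141454938-141455187, plus strand: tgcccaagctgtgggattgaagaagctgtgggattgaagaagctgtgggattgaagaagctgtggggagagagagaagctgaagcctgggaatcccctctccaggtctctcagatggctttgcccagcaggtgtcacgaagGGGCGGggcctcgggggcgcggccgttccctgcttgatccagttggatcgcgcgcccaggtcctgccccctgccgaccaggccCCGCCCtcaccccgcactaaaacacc
Abhd5, chr9:122351366-122351615, plus strand: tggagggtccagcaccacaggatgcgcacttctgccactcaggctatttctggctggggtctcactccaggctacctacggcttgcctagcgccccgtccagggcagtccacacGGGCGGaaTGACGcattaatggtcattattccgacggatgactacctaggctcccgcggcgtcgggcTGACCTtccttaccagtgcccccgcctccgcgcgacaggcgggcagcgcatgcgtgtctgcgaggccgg
G0s2, chr1:193273189-193273438, minus strand: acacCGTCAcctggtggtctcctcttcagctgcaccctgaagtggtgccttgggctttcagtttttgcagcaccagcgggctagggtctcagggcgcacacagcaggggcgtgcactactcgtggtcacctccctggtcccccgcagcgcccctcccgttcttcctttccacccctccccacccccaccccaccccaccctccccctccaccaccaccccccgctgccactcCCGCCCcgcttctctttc
Pnpla2 held 2 GC boxes, 109 and 26 bases before the start. Abhd5 held a GC box 136 bases, a TGACG 128 bases and an AGGTCA 69 bases before the start, the last on the opposite strand. G0s2 held a TGACG 246 bases and a GC box 18 bases before the start, both on the opposite strand. Among 32851 windows of the same length over all genes, 32.7% held GGGCGG, 17.8% TGACG and 14.0% AGGTCA. The full cAMP response element TGACGTCA, which contains TGACG, stood in 1.55% of windows and in 0 of the 9 windows of lipolysis genes; a direct repeat of AGGTCA with 1 base between the copies, the full PPAR-gamma element, stood in 0.0335% and in 0 of the 9. A window was listed for 7 of the 9 genes, and the others were Adrb3 and Pde3b.

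Pde3b, which ends the cAMP signal, had 389, 278, 333 and 294 CPM in S273A and 305, 257, 362 and 349 CPM in WT. S273A replicate 2 was the highest and WT replicate 2 the lowest, and the other libraries of the genotypes were mixed. The log2 fold change was 0.02 (SE 0.13; interval 0.83-fold to 1.24-fold). Pde3b lies on the plus strand of chromosome 7 at 114415281 to 114539251, in 16 exons of its longest coding transcript.

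Adrb3 encodes a beta receptor through which catecholamines act in mouse fat. It had 169, 91.2, 84.8 and 50.02 CPM in S273A and 86.2, 75.1, 103 and 65.9 CPM in WT. S273A held both the highest and the lowest of the 8 libraries, and the WT libraries all lay between them. The means were 98.6 ± 50.03 CPM in S273A and 82.6 ± 16.2 CPM in WT (SD, n = 4 each), with a log2 fold change of 0.26 (SE 0.31). Without S273A replicate 2 the log2 fold change was -0.13, and its interval over all 8 libraries, 0.74-fold to 1.93-fold, left the direction undetermined. Its SD within genotypes was 0.54 on the log2 CPM scale, against a median of 0.09 for rows of about the same level; only 0.4% of the 500 rows nearest in level were more variable. For Lipe the corresponding share was 14.8%, for Mgll 22.6%, for Pnpla2 39.8% and for Adrb1 55.8%. Adrb3 lies on the minus strand of chromosome 8 at 27225776 to 27250616 and shares 839 exon bases with Gm45470 on the other strand.

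Adrb1, the other beta receptor of the group, had 154, 125, 134 and 113 counts in S273A and 91, 125, 83 and 125 counts in WT. In CPM it was at 8.58, 7.03, 7.70 and 6.95 in S273A against 5.40, 7.11, 5.68 and 7.34 in WT. WT replicates 1 and 3 lay below all S273A libraries, and WT replicates 2 and 5 lay among them. The log2 fold change was 0.24 (SE 0.13; edgeR unadjusted p 0.0998, adjusted p 0.9999), and it stayed between 0.17 and 0.32 over all alternatives tried. Adrb1 lies on the plus strand of chromosome 19 at 56722199 to 56733113, in 1 exon of its coding transcript.

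Adra2a, the antilipolytic alpha-2A receptor, was close to the limit of detection. It had 6, 14, 5 and 14 counts in S273A and 13, 13, 16 and 13 counts in WT. S273A replicates 2 and 4 were the lowest, and S273A replicates 3 and 6 lay among the WT libraries. The log2 fold change of -0.56 (SE 0.37) had an interval of 0.381-fold to 1.2-fold. A difference of this size was therefore not detectable in these libraries. Adra2a lies on the plus strand of chromosome 19 at 54044151 to 54048982.

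Set among other adrenergic receptors and divided by feature length, Adrb3 had the highest mean level of those described here, 18.6 ± 9.43 CPM per kb in S273A and 15.6 ± 3.05 CPM per kb in WT (SD, n = 4 each). Adra1d, an alpha-1 receptor, came next at 10.1 ± 1.57 and 11.6 ± 2.38 CPM per kb in S273A and WT, and its libraries overlapped those of Adrb3. Adra1a was at 5.32 ± 1.29 CPM per kb in S273A and 4.93 ± 0.24 in WT, with every library below those of Adra1d. This order rests on the deposited lengths, 8728 bases for Adra1a and 2774 for Adra1d. Before division by length Adra1a averaged 46.4 CPM in S273A and 43.1 CPM in WT, against 27.9 and 32.2 CPM for Adra1d. Adrb1 followed at 3.04 ± 0.30 CPM per kb in S273A and 2.56 ± 0.395 in WT, below every library of Adra1a. Adra1b was at 0.62 ± 0.17 CPM per kb in S273A and 0.45 ± 0.14 in WT. The alpha-2 receptors were at the bottom: Adra2a at 0.15 ± 0.08 and 0.22 ± 0.04 CPM per kb in S273A and WT, Adra2c at 0.13 ± 0.04 and 0.15 ± 0.08, and Adra2b, with 1 to 6 counts in S273A and 2 to 5 in WT, not tested. None of the receptors named here that were tested was called.

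**Figure D3:**
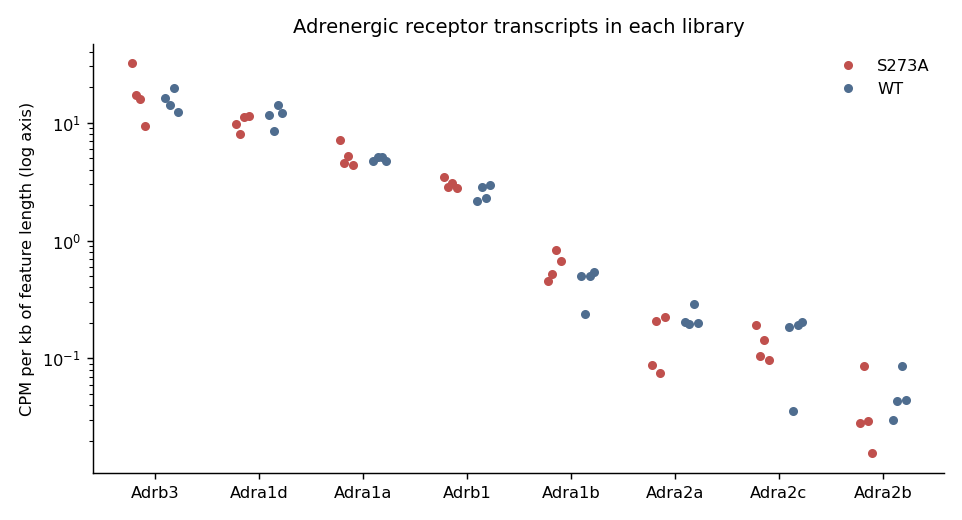
CPM per kb of feature length for adrenergic receptors on a log axis, 1 point per library, S273A left and WT right of each gene. Adrb3 stands highest on average and reaches 31.8 CPM per kb in S273A replicate 2, while Adra2a, Adra2b and Adra2c lie below 0.3 CPM per kb in every library.

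Per length, the 9 genes covered a wide span. Over all 8 libraries the mean level was 312 CPM per kb for Pnpla2 (253 to 355 by library), 196 for Mgll (152 to 234) and 90.5 for Lipe (68.7 to 104). G0s2 was at 81.0 CPM per kb (63.3 to 92.5), within the range of Lipe, and Pde3b at 60.7 (48.7 to 73.5), overlapping G0s2. Abhd5 stood at 38.1 CPM per kb (31.5 to 43.5), Adrb3 at 17.1 (9.43 to 31.8), Adrb1 at 2.80 (2.17 to 3.45) and Adra2a at 0.19 (0.08 to 0.29). The order of the lipases depends on the length used. The deposited length is 8386 bases for Lipe and 7164 for Mgll, whereas their longest GENCODE coding transcripts have 3713 and 3991 bases; with the transcript lengths Mgll came first at 352 CPM per kb, then Pnpla2 at 323 and Lipe at 204.

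Ratios within a library do not depend on how libraries are scaled, so the balance between activators and brakes was compared directly, from counts per length. The inhibitor G0s2 stood to its target Pnpla2 as 0.254 ± 0.009 in S273A and 0.266 ± 0.038 in WT (SD, n = 4 each). Abhd5 over Pnpla2 was 0.122 ± 0.005 in S273A and 0.123 ± 0.013 in WT, and G0s2 over Abhd5 was 2.08 ± 0.04 in S273A and 2.16 ± 0.17 in WT. The log2 differences of these 3 ratios, S273A minus WT, were -0.06, -0.01 and -0.05, with exact two-sided permutation p of 0.571, 0.914 and 0.571. Lipe over Pnpla2 was 0.281 ± 0.016 in S273A and 0.298 ± 0.034 in WT, and Mgll over Pnpla2 was 0.617 ± 0.039 in S273A and 0.641 ± 0.051 in WT (exact permutation p 0.457 each). For all 5 of these ratios the SD was smaller in S273A than in WT, a difference in spread that was not tested. The 5 ratios share genes, so they are not independent. For Lipe over Pnpla2, WT replicate 3 had 0.345, against 0.271 to 0.303 in the other WT libraries. For Mgll over Pnpla2 it had 0.715, against 0.600 to 0.629. The highest WT library for Abhd5 over Pnpla2 was replicate 5, at 0.135. In S273A the G0s2 to Abhd5 ratio had the smallest SD on the log2 scale, 0.03, whereas in WT it was 0.113, about that of Mgll over Pnpla2 (0.111). By library it was 2.06, 2.13, 2.04 and 2.11 in S273A against 2.10, 2.01, 2.41 and 2.13 in WT, with only WT replicate 3 above 2.13.

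Ratios to Adrb3 varied much more. Pde3b over Adrb3 was 2.31, 3.06, 3.94 and 5.90 in S273A and 3.55, 3.44, 3.52 and 5.31 in WT, so the highest and the lowest library were both S273A (log2 difference -0.12, exact permutation p 0.714). Adrb1 over Adrb3 had a log2 difference of 0.11 (exact permutation p 0.771). Adra2a over Adrb3 was 0.00277, 0.0121, 0.00473 and 0.024 in S273A, against 0.0125, 0.0137, 0.0148 and 0.0162 in WT. Its log2 difference was -0.86 (exact permutation p 0.314), and with Adrb1 added to the denominator it was -0.88 (p 0.314 by the same exact test). The 4 WT ratios of Adra2a lay close together, while those of S273A fell on both sides of them and rested on 5 to 14 Adra2a counts. No ratio passed with p adjusted over the 9 ratios (smallest 0.857), and 4 libraries against 4 cannot give a p below 0.0286. The Adra2a ratios depended on single libraries: without S273A replicate 6 the log2 difference was -1.40 to Adrb3 and -1.38 to the sum (exact permutation p 0.0286, adjusted 0.129 for both), and without S273A replicate 2 it was -0.36 and -0.41 (exact permutation p 0.629 and 0.6).

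The levels of most of the lipolysis enzymes varied between libraries together with those of general adipocyte transcripts, in both genotypes. An adipocyte marker score was taken as the mean over 12 markers, none of them among the 9 genes, of log2 CPM minus the gene's mean. It was 0.29, -0.18, 0.13 and -0.13 in S273A replicates 2, 3, 4 and 6, and -0.006, -0.41, 0.24 and 0.06 in WT replicates 1, 2, 3 and 5. The libraries at the extremes, S273A replicate 2 and WT replicate 2, are those in which several of the enzymes were highest and lowest. In whole tissue, fewer fat cells and less RNA of these genes per fat cell cannot be told apart.

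Lipe and Pde3b followed the score almost point by point. For Lipe, Pearson's r was 0.98 and Spearman's rho 0.98 over 8 libraries (exact permutation p 4.96e-05 and 0.000397; adjusted over 45 relations 0.00223 and 0.00893). For Pde3b, r was 0.97 and rho 0.98 (exact permutation p 0.000124 and 0.000397; adjusted 0.00279 and 0.00893). Without the 2 libraries farthest from the median score, r was still 0.98 for Lipe and 0.94 for Pde3b. Mgll had r = 0.92 and rho = 0.81 (exact permutation p 0.00127 and 0.0218; adjusted 0.0142 and 0.126), with r = 0.73 without those libraries, and G0s2 had r = 0.84 and rho = 0.76 (exact permutation p 0.00742 and 0.0368; adjusted 0.0342 and 0.138), with r = 0.72 without them. These r values were between 0.84 and 0.98 when the mean of each genotype had been removed.

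For Pnpla2 and Abhd5 the relation did not pass the adjustment, and for the receptors it was not detectable. Pnpla2 had r = 0.80 and rho = 0.69 (exact permutation p 0.0176 and 0.0694; adjusted 0.0564 and 0.195), and r fell to 0.32 without the 2 farthest libraries, so it rests on them; with the genotype means removed r was 0.85. Abhd5 had r = 0.75 and rho = 0.76 (exact permutation p 0.0324 and 0.0368; adjusted 0.0811 and 0.138), with r = 0.48 without those libraries and 0.77 with the genotype means removed. Adrb3 had r = 0.59 and rho = 0.55 (exact permutation p 0.122 and 0.171; adjusted 0.229 and 0.35), with r = 0.47 without them. Adrb1 had r = 0.08 and rho = 0.33 (exact permutation p 0.854 and 0.428; adjusted 0.873 and 0.642), and Adra2a r = -0.36 and rho = -0.19 (exact permutation p 0.374 and 0.665; adjusted 0.51 and 0.831). With the score as a covariate beside genotype in edgeR, the SE of the Lipe difference was 0.05 in place of 0.14 and that of Pde3b 0.05 in place of 0.13; the log2 fold changes were then 0.01 for Lipe, -0.03 for Pde3b and 0.11 for Pnpla2, and none was called.

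**Figure D4:**
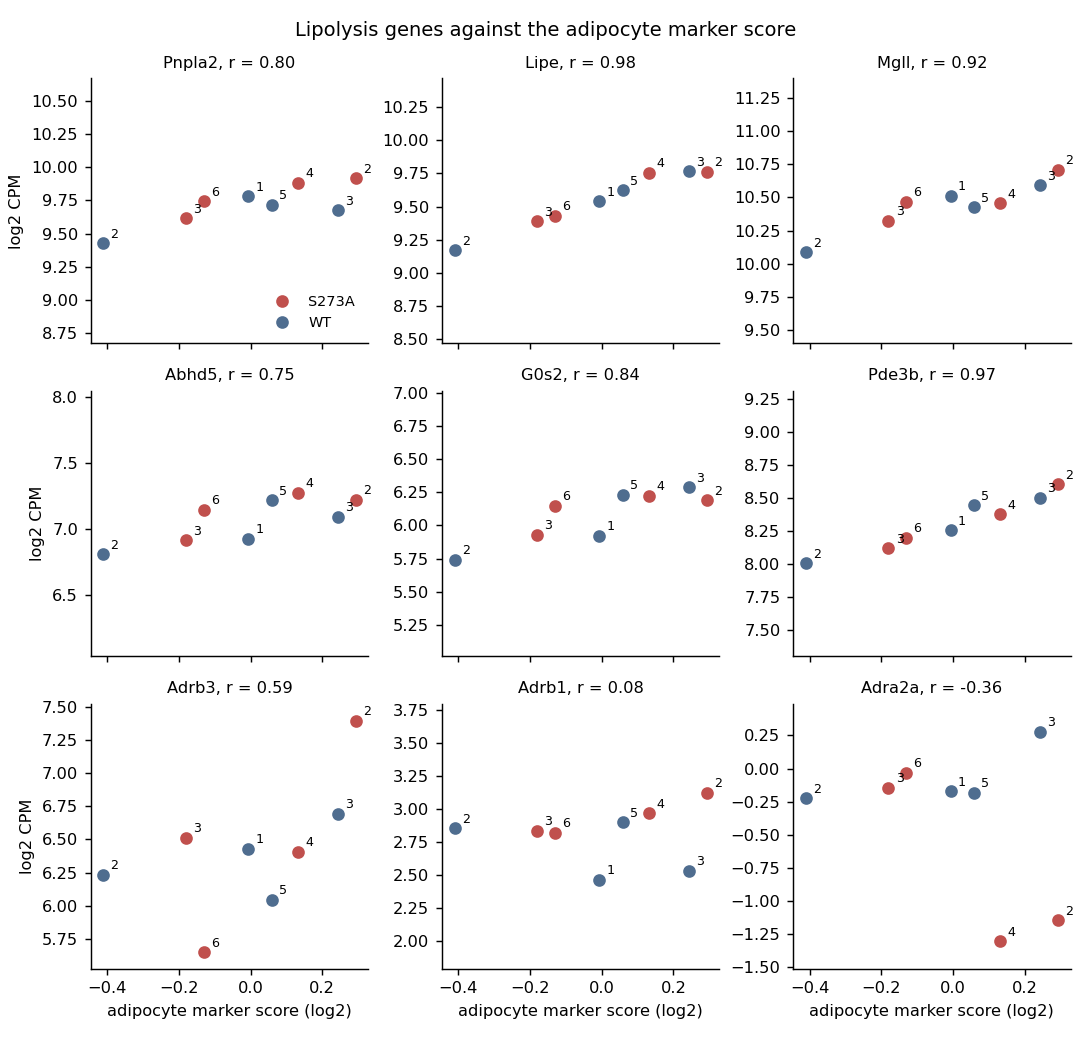
Log2 CPM of each gene against the adipocyte marker score (mean centred log2 CPM of 12 markers) in 8 libraries, numbered by replicate, with Pearson's r over all of them; every y axis spans 2 log2 units. Lipe and Pde3b form a line in which S273A and WT are mixed, Adrb3 spreads widely, and Adrb1 shows no trend.

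Markers of other cells in the depot were examined beside these values. The 12 macrophage markers summed to between 4530 and 5137 CPM in S273A and between 4800 and 5763 CPM in WT, with 11 of 12 estimates below 0, and the 8 mesothelial markers to between 207 and 285 CPM in S273A and between 145 and 240.3 CPM in WT, with 8 of 8 estimates above 0. Estimates were also above 0 in 6 of 6 red blood cell markers tested (259 to 499 CPM in S273A, 235 to 350.3 CPM in WT; median log2 fold change 0.60), in 8 of 8 endothelial markers (835 to 1024 CPM in S273A, 702 to 972 CPM in WT; median 0.10) and in 7 of 8 brown and beige fat cell markers tested (42.8 to 57.6 CPM in S273A, 33.2 to 52.3 CPM in WT; median 0.16). Adipose progenitor markers had 2 of 8 estimates above 0 and smooth muscle markers 4 of 7. Over all tested rows, 50.7% of estimates were above 0. List scores were taken as for the adipocyte markers. For brown and beige markers WT replicate 2 was at -0.83, and the other WT libraries lay within the S273A range, -0.17 to 0.35. For endothelial markers that library was at -0.35, against -0.11 in the next lowest, S273A replicate 3. Red blood cell scores were highest in S273A replicates 4 and 6. The sign counts were not repeated without single libraries. None of the genes on these lists was called, and 2 of them, Slpi of the mesothelial and Epb42 of the red blood cell list, had an unadjusted edgeR p under 0.05 (0.0434 and 0.0181). Markers of the sympathetic nerve, the source of noradrenaline, were low: Th and Uchl1 had no count in any library and Dbh had 1 in all libraries together. The other 3 of these 6 markers were tested and summed to between 3.14 and 4.08 CPM in S273A and between 1.94 and 5.57 CPM in WT; Tubb3 averaged 1.49 CPM in S273A and 1.34 in WT, Slc6a2 1.08 and 0.918, and Npy 0.861 and 0.891. The part of any of these cell types in the values of the lipolysis genes was not tested.

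Among themselves, the enzymes also varied together. Of the 36 pairs of the 9 genes, 28 had a positive Pearson's r over the 8 libraries, with a median of 0.48, and 7 had an adjusted p under 0.05. Lipe and Pde3b were the closest pair (r = 0.94, rho = 0.95; exact permutation p 0.000794 and 0.00114; adjusted 0.0119 and 0.0171), with r = 0.85 without the 2 libraries farthest from the Lipe median. Abhd5 and G0s2, the opposing partners of ATGL, had r = 0.91 and rho = 0.67 (exact permutation p 0.00387 and 0.0831; adjusted 0.0269 and 0.22), with r = 0.76 without the 2 farthest libraries. In the other 5, r lay between 0.84 and 0.87, and they were Lipe with G0s2, Lipe with Mgll, Pde3b with Mgll, Pde3b with G0s2 and Pnpla2 with Mgll; without the 2 farthest libraries r fell to 0.28 for Pnpla2 with Mgll and to 0.51 for Lipe with Mgll. By Spearman's rho, Lipe with Pde3b was the only pair of the 36 with an adjusted p under 0.05. Adrb1 and Adra2a ran in opposite directions (r = -0.72, rho = -0.81; exact permutation p 0.0468 and 0.0218), which did not pass the adjustment (0.105 and 0.126); r was -0.84 without the 2 farthest libraries and -0.57 with the genotype means removed.

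The rows most like each gene were taken from the 3 with the highest Pearson's r of log2 CPM over the 8 libraries, out of the 13799 rows whose average log2 CPM reached 1. As the highest of so many, these r values are a description and carry no test. For Lipe they were Mgst1, 1600014C10Rik and Pomt2 (0.99 to 1.00), and for Pde3b Slc1a5, Dctn3 and Pm20d2 (0.99 to 1.00). Pnpla2 was most like Fxyd1, Osbpl10 and Ptprm (0.98 each), and Mgll most like Thnsl2, AK036982 and Exoc3l (0.98 to 0.99). For Abhd5 they were Eid2, Dag1 and Atpaf2 (0.97 to 1.00), and for G0s2 Sqstm1, L3hypdh and Bcl9l (0.98 to 0.99). The receptors had fewer close rows: Adrb3 was most like Hipk1, Dzank1 and Ahcyl2 (0.95 to 0.97), Adrb1 like Gas6 and Pkdcc (0.94 to 0.96) and Adra2a like Rrnad1, Ddx52 and Ssrp1 (0.95 to 0.97). An r above 0.9 was reached by 387 rows for Lipe, 285 for Pde3b, 281 for G0s2, 152 for Mgll, 102 for Pnpla2 and 85 for Abhd5, against 24 for Adrb3, 17 for Adra2a and 7 for Adrb1.

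The rest of the pathway showed no called gene. Of the 16 genes from the beta-adrenergic receptor to protein kinase A, 0 passed the test, and estimates were above 0 in 7 and below 0 in 9 (median -0.01 on the log2 scale). The lowest p-values there belonged to the adenylyl cyclases Adcy7 (298 ± 43.6 CPM in S273A, 324 ± 34.2 in WT) and Adcy4 (32.6 ± 3.71 and 30.4 ± 2.84) and to Adcy3 (218 ± 14.0 and 229 ± 21.9). Prkar2b, the regulatory subunit of protein kinase A typical of fat, was at 569 ± 83.8 CPM in S273A and 566 ± 91.6 CPM in WT.

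On the side of the brakes, 0 of 20 tested genes passed, with 9 estimates above 0 and 11 below (median -0.01). The insulin signalling genes Pik3r1, a subunit of PI3 kinase, at 350.2 ± 43.2 CPM in S273A and 303 ± 24.3 in WT (log2 fold change 0.21, edgeR unadjusted p 0.0553), and Irs1, at 95.7 ± 17.0 and 84.1 ± 3.78 CPM, had the smallest p-values, followed by Pik3cb. The adenosine receptor Adora1 was at 76.3 ± 17.1 CPM in S273A and 78.8 ± 29.1 in WT, the lactate receptor Hcar1 at 53.0 ± 6.31 and 49.3 ± 9.58, and the prostaglandin receptor Ptger3 at 104 ± 36.8 and 93.8 ± 35.6, all antilipolytic receptors that couple to Gi.

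Droplet proteins that gate the lipases had 7 of 10 estimates above 0 and 0 called (median 0.01). Plin1, the perilipin that holds Abhd5 until it is phosphorylated, was at 640 ± 91.1 CPM in S273A and 639 ± 126 CPM in WT, with a log2 fold change of 0.003 (SE 0.15). The smallest p-values were those of Cidea (1.48 ± 0.61 CPM in S273A, 0.98 ± 0.45 in WT), Plin3 and Plin5. Other lipid hydrolases had 8 of 15 tested above 0 and 0 called (median 0.002), with the carboxylesterase genes Ces1f at 30.1 ± 5.80 CPM in S273A and 24.2 ± 2.60 in WT (log2 fold change 0.31, edgeR unadjusted p 0.0503) and Ces1d at 297 ± 78.1 and 260 ± 32.8, and the diglyceride lipase gene Daglb, having the smallest p-values. Pnpla3, the closest relative of Pnpla2, was at 149 ± 38.0 CPM in S273A and 155 ± 54.8 in WT.

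The natriuretic peptide branch, a separate route to HSL through cGMP, had 5 of 7 estimates above 0 and 0 called (median 0.05). The clearance receptor Npr3 was at 1180 ± 197 CPM in S273A and 1226 ± 209 in WT, and the signalling receptor Npr1 at 123 ± 5.25 and 119 ± 9.19 CPM; per kb of feature length Npr3 was at 144 and Npr1 at 30.3 CPM in S273A. Prkg2, a cGMP-dependent kinase gene, had the smallest p (1.01 ± 0.559 CPM in S273A, 0.567 ± 0.197 in WT), followed by Npr1 and Pde9a. Genes for glycerol and fatty acid handling had 5 of 8 tested above 0 and 0 called (median 0.05), led by Dgat2, which esterifies fatty acids again (598 ± 104 CPM in S273A, 689 ± 242 in WT), Angptl4 and Fabp5. The glycerol channel Aqp7 was at 197 ± 17.2 CPM in S273A and 191 ± 34.6 CPM in WT.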

How the data were processed

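Whole-tissue RNA of 8 libraries was studied, 4 S273A and 4 WT, grouped by the genotype label; replicate numbers are those of the titles. Libraries started from 400 ng of RNA after ribosomal depletion and carry no strand mark, with tagmentation, 12 amplification cycles and paired reads of 36 bases, per the labels' protocols. The authors deposited whole-number read counts per gene row, not normalised, and a column of feature lengths, another quantity, used only to scale levels between genes. Per the submitters' processing notes, which give no roles, featureCounts 1.5.2 and HISAT2 2.0.5 stand beside bcl2fastq 2.20.0, edgeR 3.3.0 and Picard 2.9.2, with the build mm10; the sources used here do not give the annotation or how duplicates and multi-mapping reads were handled.

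Counts were tested with edgeR 4.0.16 (R 4.3.3) on the 15667 rows kept by filterByExpr, with TMM scaling, robust glmQLFit and glmQLFTest, genotype as the only term, and Benjamini-Hochberg adjustment over all tested rows. SEs and 95% intervals were taken from the F statistic. Log2 CPM used a prior count of 2. The test was checked on simulated counts. Ratios and correlations were tested by exact permutation (scipy 1.17.1, numpy 2.4.6), two-sided, with adjustment over 9 ratios and 45 relations. No libraries were alike within sampling noise (smallest chi-square over its degrees of freedom 5.81). Gene positions are from GENCODE M21 on GRCm38, the assembly mm10 names. DESeq2 1.42.0, limma 3.58.1, other scaling, no filter, a replicate block, an adipocyte covariate, summed rows and each library left out were the alternatives. Named genes were the 9 genes, the 3 with the smallest p of each list, adrenergic receptors, the 3 rows most like each gene, and a few for background, of which 2 are not reported here; Prkar2b, Adora1, Hcar1, Ptger3, Npr3 and Aqp7 were added after their values were seen. Members and lists were chosen with earlier results of these data known.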

Additional observations from a re-analysis of the deposited data

Results flagged for a closer look

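In WT, 1 library stood apart from the other 3 in 2 of the 36 sets of 4 values examined (9 genes and 9 ratios in each genotype), where the gap to its nearest neighbour took over 0.829 of the range; chance alone flags about 1 set in 20. Adra2a was at 1.09 CPM in WT replicate 3, from 16 counts, against 0.739 to 0.771 CPM from 13 counts each in the other WT libraries. The ratio of Pde3b to Adrb3, per length, was 5.31 in WT replicate 5, against 3.44 to 3.55 in the other WT libraries; Adrb3 was at its lowest WT level there, 65.9 CPM. Adrb3 in S273A replicate 2 (169 CPM) was not set apart by this measure, because the other S273A libraries were themselves spread from 50.02 to 91.2 CPM.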

How the results depend on the processing

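No gene of the 9 was called under any of the 15 alternatives (adjusted p between 0.9991 and 0.9999), and the median log2 fold change of the group lay between -0.014 and 0.15. Over the whole table, 0 rows were called; DESeq2 called 1, Gdf3, and leaving out single libraries gave 0 to 1. With the adipocyte score as a covariate Pde3b changed sign, to -0.026. Leaving out single libraries moved the log2 fold change from -0.050 to 0.14 for Lipe, -0.014 to 0.15 for Mgll, -0.027 to 0.15 for G0s2, -0.13 to 0.48 for Adrb3 and -0.079 to 0.096 for Pde3b; it ran from 0.069 to 0.20 for Pnpla2, 0.061 to 0.20 for Abhd5, 0.17 to 0.32 for Adrb1 and -0.82 to -0.35 for Adra2a. The cause was not tested. The log2 ratio differences then ranged from -0.086 to 0.00018 for Mgll over Pnpla2, -0.084 to 0.035 for Abhd5 over Pnpla2, -0.15 to 0.011 for G0s2 over Pnpla2, -0.084 to 0.0044 for G0s2 over Abhd5, -0.13 to 0.35 for Adrb1 over Adrb3, -0.36 to 0.092 for Pde3b over Adrb3, -1.40 to -0.36 for Adra2a over Adrb3, -1.38 to -0.41 for Adra2a over the sum of Adrb1 and Adrb3 and -0.12 to -0.0070 for Lipe over Pnpla2. Replicate numbers 2 and 3 occur in both genotypes. Across genes, the deviations of same-numbered libraries had r of -0.10 and -0.28, and those of differently numbered ones between -0.53 and 0.557. With so few pairs, these values cannot show whether a shared number marks a pairing, and the labels name none. Every other number occurs in a single genotype, so with a replicate block the genotype difference rests on the libraries numbered 2 and 3. The median of the 9 was then 0.12, Adrb3 was at 0.49, and 0 genes were called. With the longest GENCODE coding transcript as the length, a choice made after seeing the data, levels were 204 CPM per kb for Lipe, 352 for Mgll, 43.0 for Abhd5, 2.36 for Adrb1, 32.4 for Adrb3 and 48.8 for Pde3b, a result of the length alone. The 95% intervals of the 9 genes reached, in the median, 0.29 to either side on the log2 scale. That reach differed by gene, from the narrowest interval, -0.08 to 0.35 for Pnpla2, to the widest, -1.39 to 0.27 for Adra2a. A difference smaller than the reach of a gene's own interval was not detectable. As calls used p adjusted over all tested rows, differences larger than that reach could also go uncalled. Adra2a rests on 16 counts or fewer per library.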
